A study of Mus musculus with 8 samples.

Results

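Retinoid transport and metabolism genes were examined in maturation stage (Mat) dental tissue of mice lacking Med1 in epithelia. The genes were the 9 symbols Rbp4, Crabp1, Crabp2, Aldh1a1, Aldh1a2, Aldh1a3, Rdh10, Stra6 and Cyp26b1, taken as a list of symbols from the pathway, out of 16593 genes named on an Illumina MouseRef-8 bead array. They were covered by 10 probes, of which Aldh1a2 had 2. KO mice carried floxed Med1 alleles (MED1 fl/fl) and a Cre driven by the keratin 14 (K14) promoter, which removes Med1 from K14-expressing epithelia only, so other cell types in the tissue kept the gene. CON mice were littermates with the same MED1 fl/fl alleles and no Cre. Both groups were C57BL/6 and 10 wk old, and tissue was microdissected from the lower incisors, where KO incisors generate hairs and CON incisors form enamel. Each group had 4 arrays, and tissue from 3 mice was combined for RNA. Nothing in the labels tells whether separate pools of mice stand behind the 4 arrays of each group. The p-values therefore refer to the spread among these arrays alone, and that spread may be technical.

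Vitamin A circulates as retinol bound to Rbp4, enters cells through Stra6 and is oxidised in cells first to retinal, by Rdh10 and related dehydrogenases, and then to retinoic acid, by the Aldh1a enzymes. Crabp1 and Crabp2 bind retinoic acid in the cytoplasm, Cyp26b1 degrades it, and the receptors of the Rar and Rxr families carry its effect to target genes. Retinoids are known to restrain keratinisation of epithelia, vitamin A deficiency disturbs enamel formation in rodent incisors, and Med1 is a Mediator subunit that contacts nuclear receptors.

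Levels are given as log2 normalised signal, and a probe was called detected on an array where its detection p against the negative control beads was under 0.01. Differences are KO minus CON on this log2 scale with their SE, from a limma fit over 12838 probes detected on at least 4 of the 8 arrays, and a gene was called changed at a Benjamini-Hochberg adjusted p under 0.05. Where a gene had several probes, the brightest stood for it. The targeted gene was checked first. Med1 had levels of 7.67, 7.67, 7.30 and 7.53 on the KO arrays, against 8.06, 8.58, 8.12 and 8.42 on the CON arrays. The groups did not overlap and Med1 was lower in KO by -0.76 ± 0.13 (limma adjusted p = 0.00075), and where its probe lies relative to the deleted exons was not analysed here.

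The arrays had mean signals between 550.8 and 811.9 and between 11554 and 13134 detected probes, and arrays of a group correlated at 0.992 or more, against at most 0.923 between the groups. The Med1 deletion went with a wide change of the tissue: 7665 of the 12838 probes (59.7%) were called, 2878 (22.4%) higher and 4787 (37.3%) lower in KO, and the median difference of all tested probes was -0.14. The enamel genes Amelx, Ambn, Enam, Klk4, Mmp20, Slc24a4 and Alpl were detected on every array, and Wdr72 on none. Ambn, Enam and Klk4 were higher in KO by 0.31 ± 0.08, 1.14 ± 0.14 and 0.65 ± 0.07, and Alpl and Slc24a4 were lower by -0.49 ± 0.10 and -0.18 ± 0.06. Of the basal and pan-epithelial markers, Krt5 and Trp63 were lower by -0.98 ± 0.09 and -0.48 ± 0.07, Cdh1 was higher by 0.34 ± 0.08, and Krt14 and Itgb4 did not pass the threshold. Markers of other cell types moved with the groups. All 6 tested markers of cornified epidermis were higher in KO, with a summed normalised signal of 60500 to 63200 in KO arrays and 2870 to 3990 in CON arrays, and Ivl and Flg2 of that list were detected on no array. Krt1 of the same list was detected on the KO arrays alone and passed the detection filter only through them. All 4 tested macrophage markers were higher (summed signal 21100 to 23600 in KO, 1800 to 1970 in CON), and Itgam of that list was detected on 3 KO arrays and on no CON array. Also higher were all 7 markers of skeletal muscle (28600 to 32600 in KO, 7980 to 9360 in CON), all 5 tested markers of odontoblasts and bone (16600 to 17900 in KO, 9790 to 10100 in CON), 4 of 5 of endothelium and 5 of 8 of fibroblasts and dental mesenchyme. The 5 tested markers of odontoblasts and bone were Ibsp, Bglap, Phex, Mepe and Sp7. Dspp and Dmp1 of that list, and Kdr of the endothelium list, were detected on no array. By contrast, 5 of 6 tested salivary gland markers were lower, while Prol1 of that list was higher by 3.68 ± 0.11. The summed signal of all 6, Prol1 included, was 763 to 954 in KO and 1850 to 2270 in CON. Among sex-linked genes, Xist was higher in KO by 0.46 ± 0.16 and Eif2s3y and Kdm5d were lower by -0.95 ± 0.24 and -1.04 ± 0.14. The part of these shifts in the values given below was not tested.

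Of the 9 retinoid genes, 8 passed the detection filter and were tested. Crabp2 and Aldh1a3 were higher in KO, Aldh1a2 was lower, and Crabp1, Aldh1a1, Rdh10, Stra6 and Cyp26b1 did not pass the threshold. The 3 called genes compare with 60.9% of all 9083 tested genes called, 24.4% higher and 36.5% lower. The levels of KO and CON arrays did not overlap for these 3 genes, as for 56.8% of all tested genes. The median difference of the 8 tested genes was 0.01, against -0.12 for all tested genes. In a tissue piece, fewer cells of a type and less RNA per cell cannot be told apart, and this holds for every difference given here.

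**Figure D1:**
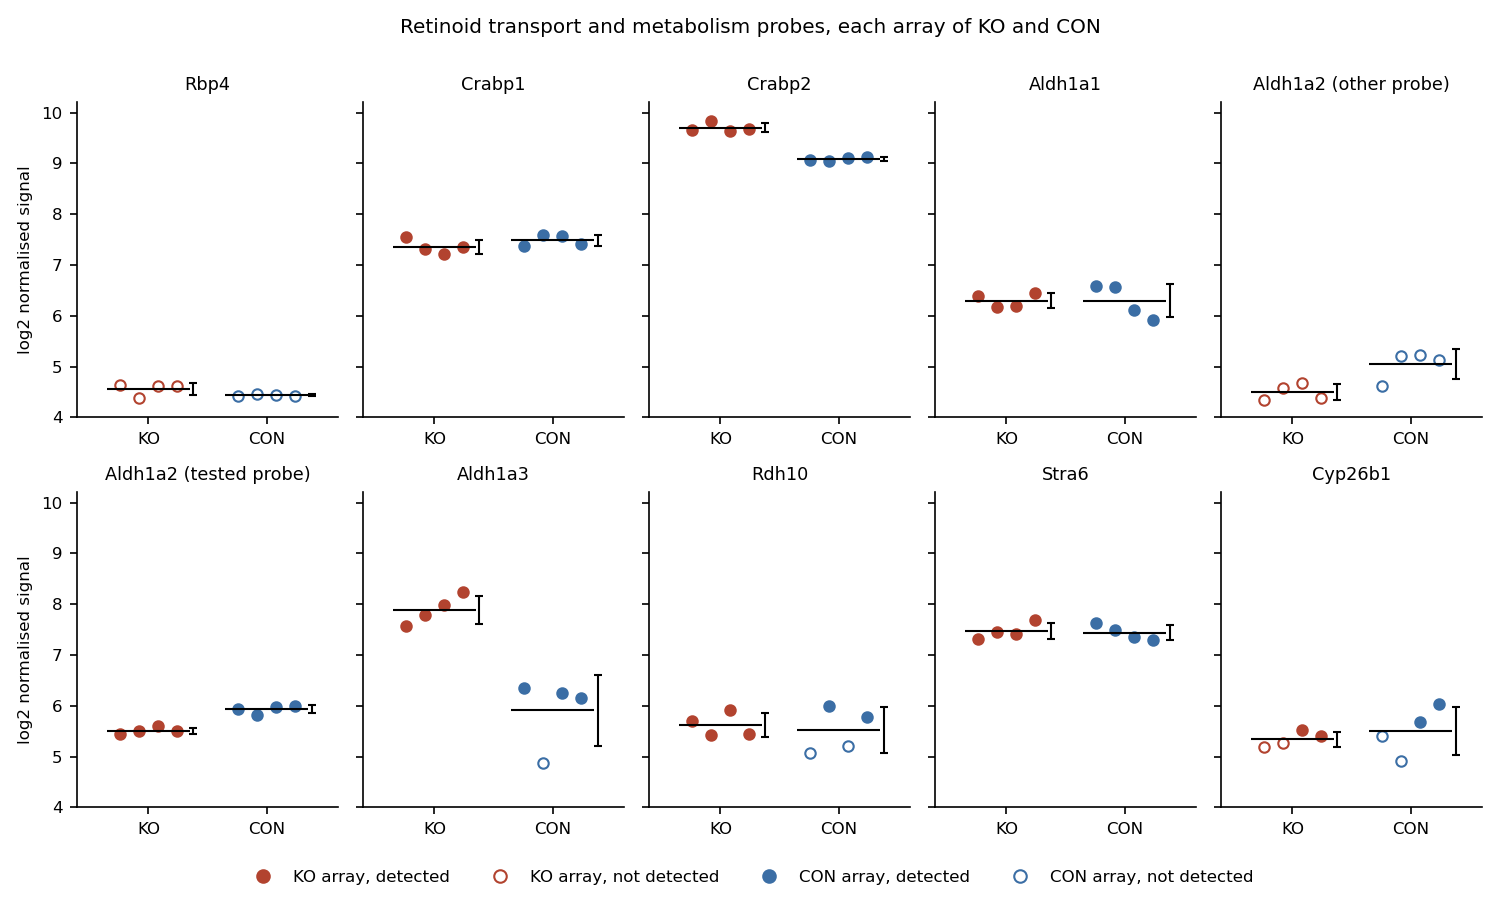
Log2 normalised signal of the 10 retinoid probes on each array, KO left and CON right of each panel. Filled points are detected arrays, open points are arrays with a detection p of 0.01 or more, lines are group means and bars are SD (n = 4 each). Only Crabp2, Aldh1a3 and the tested Aldh1a2 probe have KO and CON points that do not overlap, and Rbp4 and the other Aldh1a2 probe are open on all 8 arrays.

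The transport proteins showed no called difference. Rbp4, which carries retinol in blood and is made mainly in the liver, was not detected on any of the 8 arrays, with levels of 4.39 to 4.63 in KO and 4.43 to 4.47 in CON, and was not tested. Stra6, the membrane receptor that takes up retinol from Rbp4, was detected on all arrays. Its levels were 7.32, 7.46, 7.41 and 7.68 in KO and 7.63, 7.49, 7.36 and 7.30 in CON, so the groups overlapped along most of their range. The difference was 0.02 ± 0.10 (limma adjusted p = 0.86), with a 95% confidence interval of -0.21 to 0.25.

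Of the cellular binding proteins, Crabp2 was called and Crabp1 was not, and the difference between them was not tested. Crabp2 delivers retinoic acid to the nuclear receptors and is known from epidermis. Its levels were 9.66, 9.84, 9.64 and 9.67 in KO and 9.06, 9.04, 9.10 and 9.12 in CON. Every KO array lay above every CON array, and KO2 stood above the other KO arrays. Crabp2 was higher in KO by 0.63 ± 0.07 (1.54-fold, limma adjusted p = 3.7e-05). In the deposited signals before any scaling, Crabp2 had 871.9, 1373.8, 741.4 and 867.6 in KO and 564.2, 574.6, 665.7 and 726.1 in CON, which also did not overlap. Crabp1, the relative of Crabp2 that is thought to hold retinoic acid in the cytoplasm, had levels of 7.56, 7.32, 7.22 and 7.35 in KO and 7.37, 7.59, 7.57 and 7.41 in CON. These overlapped, and the difference of -0.12 ± 0.09 was not called (limma adjusted p = 0.27, 95% confidence interval -0.33 to 0.08) and turned to 0.11 with cyclic loess scaling.

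Among the 4 synthesis enzymes of the 9 genes, Rdh10, Aldh1a1, Aldh1a2 and Aldh1a3, the largest difference was that of Aldh1a3. Aldh1a3 is a retinaldehyde dehydrogenase and makes retinoic acid in the last step of synthesis. Its levels were 7.58, 7.78, 7.98 and 8.24 in KO and 6.35, 4.87, 6.25 and 6.16 in CON. All KO arrays lay above all CON arrays, and CON2 stood apart from the other CON arrays and was the only array without detection of the probe. Aldh1a3 was higher in KO by 1.98 ± 0.30 (3.96-fold, limma adjusted p = 0.00029). Without CON2 the difference was 1.64 and was still called. The deposited signals were 288.9, 430.0, 304.3 and 392.2 in KO and 168.7, 127.7, 178.6 and 182.5 in CON, so the separation was present before scaling, and CON2 was again the lowest.

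Aldh1a2, the retinaldehyde dehydrogenase that supplies most of the retinoic acid of the early mouse embryo, went the other way. The tested probe had levels of 5.45, 5.50, 5.60 and 5.51 in KO and 5.93, 5.81, 5.97 and 6.00 in CON. The groups did not overlap, and the arrays of each group lay close together. Aldh1a2 was lower in KO by -0.41 ± 0.07 (limma adjusted p = 0.00069). This probe was near the detection limit, with detection p-values of 0.0025 to 0.0063 over the 8 arrays, and its deposited signals overlapped: they were 145.8, 179.1, 141.4 and 148.8 in KO and 151.4, 150.7, 165.1 and 174.9 in CON. The highest of the 8 signals was that of KO2, the array with the highest mean signal, so that the separation of the groups appeared after scaling. The other Aldh1a2 probe was not detected on any array and was not tested, with levels of 4.35 to 4.67 in KO and 4.62 to 5.23 in CON.

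The Aldh1a2 promoter is shown because it was the called gene of the 9 that had an entry in the RefSeq promoter table, and because the same window was searched for retinoic acid response elements. The window runs from 250 bases before to 50 bases after the start site, at chr9:71215539-71215838 on the plus strand of GRCm38.p6, and is written 5′ to 3′.
Aldh1a2 promoter: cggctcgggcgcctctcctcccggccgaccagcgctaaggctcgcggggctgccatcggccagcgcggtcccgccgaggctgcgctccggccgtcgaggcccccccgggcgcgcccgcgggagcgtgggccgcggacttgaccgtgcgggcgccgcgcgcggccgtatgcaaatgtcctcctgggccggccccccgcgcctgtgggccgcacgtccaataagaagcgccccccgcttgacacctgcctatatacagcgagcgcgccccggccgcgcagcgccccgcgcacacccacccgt
The search was for the direct repeats DR1, DR2 and DR5 on both strands, in which copies of the nuclear receptor motif AGGTCA or its close variants are separated by 1, 2 or 5 bases, the layouts bound by Rar and Rxr pairs. None was found in the Aldh1a2 window or in the other 10 windows of the 6 retinoid genes with an entry, which were Rbp4, Crabp1, Aldh1a1, Aldh1a2, Stra6 and Cyp26b1. Over all 32851 windows of this length, DR1 was found in 0.222%, DR2 in 0.268% and DR5 in 0.0974%. The Aldh1a2 window held 78.0% G and C, against 43.3% and 47.0% in the 2 windows of Aldh1a1.

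The remaining synthesis enzymes did not pass the threshold. Aldh1a1, the third retinaldehyde dehydrogenase, was detected on all arrays, with levels of 6.40, 6.18, 6.19 and 6.45 in KO and 6.59, 6.56, 6.12 and 5.92 in CON. The KO arrays lay within the range of the CON arrays, and the difference was 0.01 ± 0.15 (limma adjusted p = 0.98, 95% confidence interval -0.33 to 0.35). Rdh10 oxidises retinol to retinal, the first step of the route. Its levels were 5.71, 5.42, 5.91 and 5.44 in KO and 5.08, 6.00, 5.20 and 5.78 in CON, and it was detected on 4 KO arrays and on 2 CON arrays. The CON arrays were spread more widely than the KO arrays, and the difference was 0.10 ± 0.21 (limma adjusted p = 0.69, 95% confidence interval -0.36 to 0.56). Cyp26b1, the cytochrome P450 that breaks down retinoic acid, was close to background, with detection on 2 arrays of each group. Its levels were 5.18, 5.27, 5.53 and 5.40 in KO and 5.40, 4.92, 5.69 and 6.03 in CON. The groups overlapped, and the difference was -0.17 ± 0.20 (limma adjusted p = 0.50, 95% confidence interval -0.62 to 0.29).

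**Figure D2:**
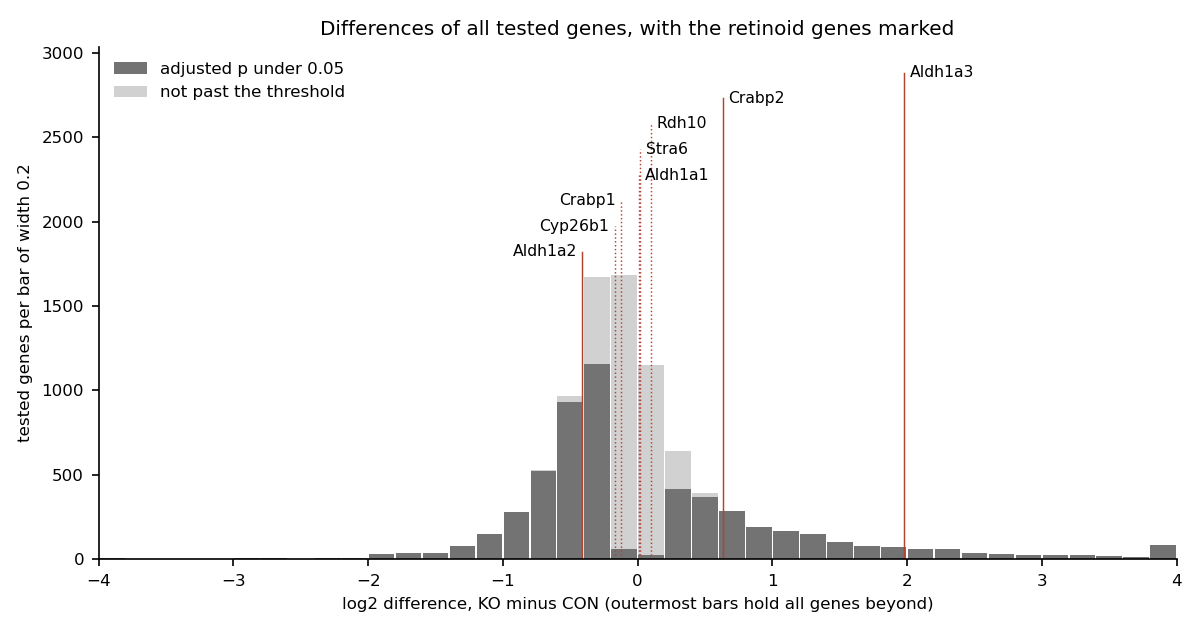
Number of tested genes (vertical axis) by log2 difference, KO minus CON, in bars of width 0.2, dark for genes past the threshold and light for the rest. Red lines mark the 8 tested retinoid genes, solid where called and dotted where not. Aldh1a3 at 1.98 and Crabp2 at 0.63 lie to the right of most genes, while Aldh1a2 at -0.41 lies within the bulk.

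Set against all 9083 tested genes, Aldh1a3 had a higher difference than 95.9% of them and Crabp2 than 85.0%, whereas Aldh1a2 had a higher difference than 22.6%. The scaling moved the median of all tested probes, which stood at -0.22 after median scaling and at 0.02 after cyclic loess, and the share of calls that were higher in KO was 30.6% and 56.7% under these scalings, against 37.5% here. Relative to the median of all probes under 6 ways of correcting and scaling the signals, Crabp2 was higher by 0.63 to 0.76 and Aldh1a3 by 1.12 to 2.16. Aldh1a2 lay -0.28 from the median here and -0.05 in the values that the authors normalised in GenomeStudio, so that in those values it was lower by little more than the typical probe.

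**Figure D3:**
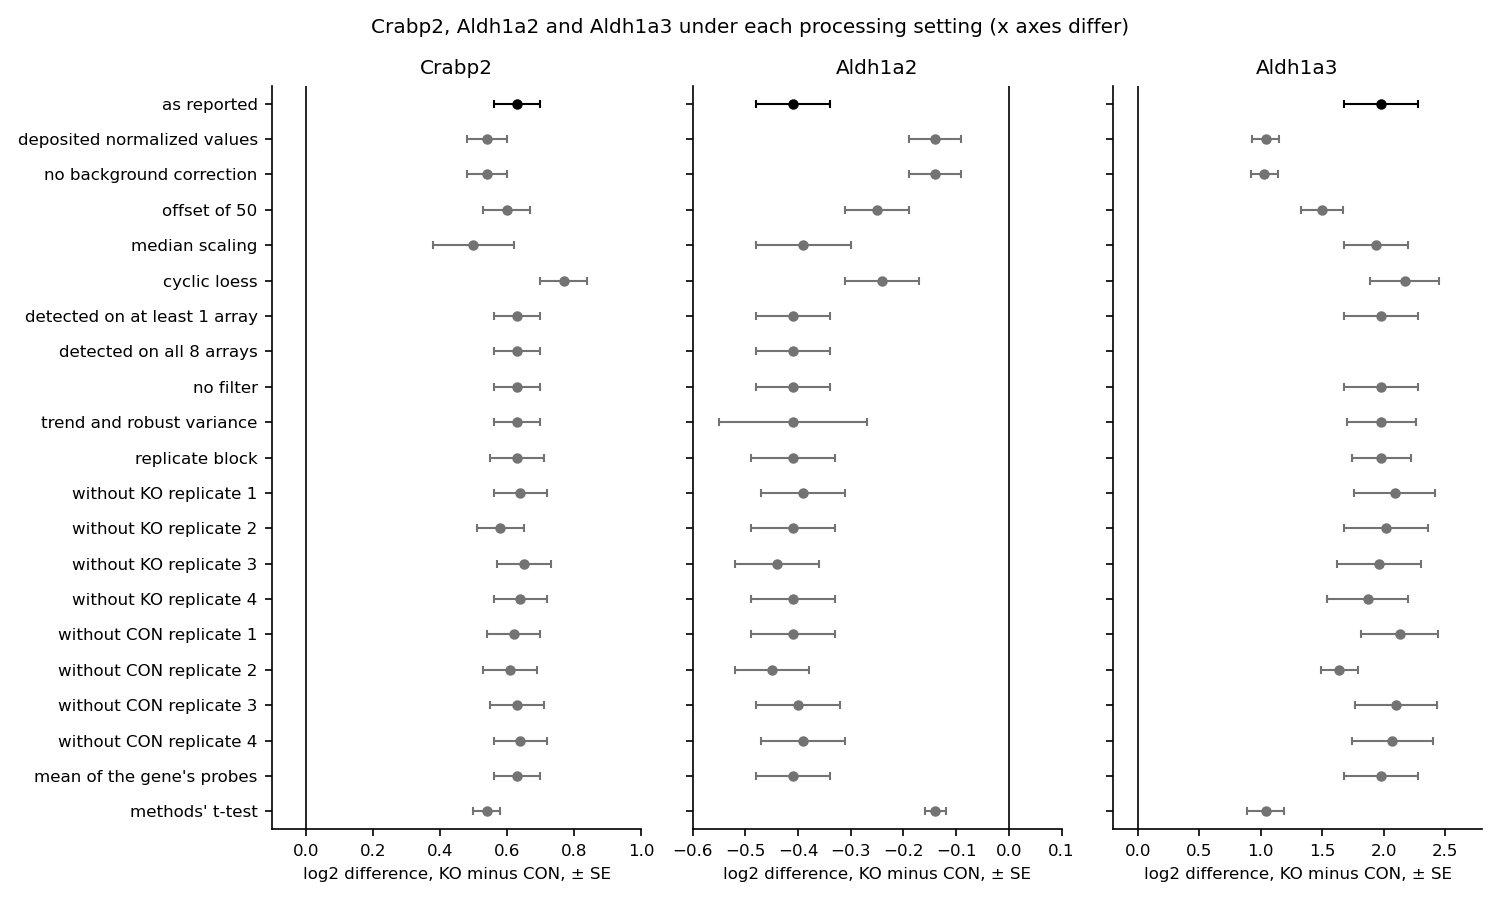
Log2 difference, KO minus CON, with its SE for the 3 called genes under each processing setting, the reported value in black. The horizontal axes differ between panels. Crabp2 lay between 0.50 and 0.77, Aldh1a2 between -0.45 and -0.14 and Aldh1a3 between 1.03 and 2.17, with no point for Aldh1a3 where detection on all 8 arrays was required.

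All 3 differences kept their direction under every setting shown in the plot by setting, and their adjusted p stayed under 0.05 in each of them that could test the gene. The size was less stable. The difference of Aldh1a3 was 1.03 and that of Aldh1a2 -0.14 when no background was subtracted, with adjusted p-values of 6.2e-07 and 0.033. By the p and fold thresholds of the methods' t-test on the GenomeStudio values, which 14.5% of all tested probes passed, Aldh1a3 alone of the retinoid genes was past both, and Crabp2 at 0.54 and Aldh1a2 at -0.14 fell short of the fold.

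Other genes of the pathway were taken from 5 lists by role. Of 80 symbols listed, 66 had a named probe on the array and 34 were tested, of which 13 were higher, 12 lower and 9 not past the threshold. The split depended on the scaling, with 16 higher and 7 lower after cyclic loess and 12 higher and 13 lower after median scaling, and by the p and fold of the methods' t-test 10 were higher and 1 lower. The count of called genes was 25 of 34, against 60.9% of all tested genes, 24.4% higher and 36.5% lower. The 25 include Med1, the targeted gene. Adh7, Cyp3a13 and Meis2 were detected on at most 2 CON arrays, and Lrat on 1 KO array. They passed the detection filter mainly through the other group, so their calls add no support to these counts. The median difference of the 34 genes was 0.07. Ttr, which carries Rbp4 in blood, and Cyp26a1 and Dhrs3, both known as retinoic acid targets, were among the 27 not detected on any array. Without background subtraction the differences of several genes near background in KO or in CON were smaller, at 1.03 for Rbp2, -0.55 for Lrat, 2.45 for Sdr16c5, 1.58 for Cyp3a13 and 1.31 for Meis2, with the same directions and calls by limma.

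The genes of retinol transport, storage and uptake moved in both directions, with 2 of 4 tested higher and 2 lower. Among all tested genes, 24.4% were higher and 36.5% lower. Rbp2, the retinol-binding protein known from the small intestine, had levels of 7.78, 7.31, 7.87 and 8.03 in KO and 5.85, 5.70, 5.84 and 5.27 in CON. KO arrays were far above CON arrays, where it was detected on 3 of 4, and the difference was 2.08 ± 0.17 (limma adjusted p = 3.8e-06). Lrat, which esterifies retinol for storage, had levels of 5.07, 5.60, 5.13 and 5.05 in KO and 6.44, 6.84, 6.66 and 6.86 in CON. It was detected on 1 of 4 KO arrays and on all CON arrays, and was lower in KO by -1.49 ± 0.14 (limma adjusted p = 9.5e-06). Lpl, a lipase that also frees retinyl esters from lipoproteins, was higher by 2.42 ± 0.07. Muscle and macrophages express Lpl and their markers were higher in KO too, but their part in its difference was not tested. Dgat1, a second enzyme able to esterify retinol, was lower by -0.47 ± 0.16 (limma adjusted p = 0.027). This call did not hold under 10 of 21 alternatives: the difference was -0.23 with cyclic loess (limma adjusted p = 0.27), and the adjusted p lay between 0.05 and 0.073 when KO1, KO2, KO3, CON1, CON2 or CON3 was left out. These fits keep CON4, which lay below the other CON arrays. Without CON4 the difference was -0.63 and was still called.

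The retinol and retinal dehydrogenases and reductases held the 2 largest differences of the pathway lists, those of Sdr16c5 and Rdh12. Of 11 tested, 5 were higher, 3 lower and 3 not past the threshold, against 24.4% higher and 36.5% lower over all tested genes. Sdr16c5, an epidermal retinol dehydrogenase, had levels of 9.67, 9.71, 9.43 and 9.52 in KO and 5.61, 5.80, 5.78 and 5.75 in CON. It was detected on 3 of 4 CON arrays and was higher in KO by 3.84 ± 0.09 (14.4-fold, limma adjusted p = 4.7e-10). Rdh12, which reduces retinal in the retina, had levels of 9.82, 9.83, 9.95 and 10.05 in KO and 7.06, 6.80, 6.54 and 6.13 in CON. The CON arrays were spread more than the KO arrays and the groups were far apart, with a difference of 3.28 ± 0.17 (limma adjusted p = 1.2e-07). Adh7, an alcohol dehydrogenase that acts on retinol, was detected on all KO arrays and on no CON array. It passed the detection filter through the KO arrays alone, so its call adds no support to the count of higher genes. With the background correction used, it was at least 2.16-fold higher in KO, taking for each CON array the higher of its own level and that of the dimmest detected probe (limma adjusted p = 2.8e-05). Without background subtraction the fitted difference was 0.57, so the bound holds for this correction alone. Akr1b8, an aldo-keto reductase, was higher by 1.71 ± 0.12 (limma adjusted p = 9e-07). The called genes that were lower, Adh5, Rdh14 and Rdh5, had differences of -0.40, -0.31 and -0.28. Of 21 alternatives, Adh5 was not called in 1, Rdh14 in 5 and Rdh5 in 9. Dhrs7, among the 5 higher genes, differed by 0.28 ± 0.07 and was not called in 3 of 21, the mean of its probes included. Its other tested probes had 0.12 ± 0.13 and -0.08 ± 0.16 and were not called.

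Both tested genes of retinoic acid breakdown other than Cyp26b1 were called, as were 60.9% of all tested genes, and went in opposite directions. Cyp2s1, a cytochrome P450 of epithelia that can metabolise retinoic acid, had levels of 8.83, 8.94, 9.02 and 8.84 in KO and 9.78, 9.83, 9.80 and 9.96 in CON. The groups did not overlap and it was lower in KO by -0.93 ± 0.08 (limma adjusted p = 3.4e-06). Cyp3a13, of a family with broad substrates, had levels of 8.09, 8.44, 8.20 and 8.53 in KO and 5.25, 5.17, 4.82 and 5.49 in CON. It was detected on all KO arrays and on 1 CON array, and its difference was 3.14 ± 0.15 (limma adjusted p = 5.1e-08). Its other tested probe was detected on the KO arrays alone and passed the detection filter only through them, so it adds no support.

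**Figure D4:**
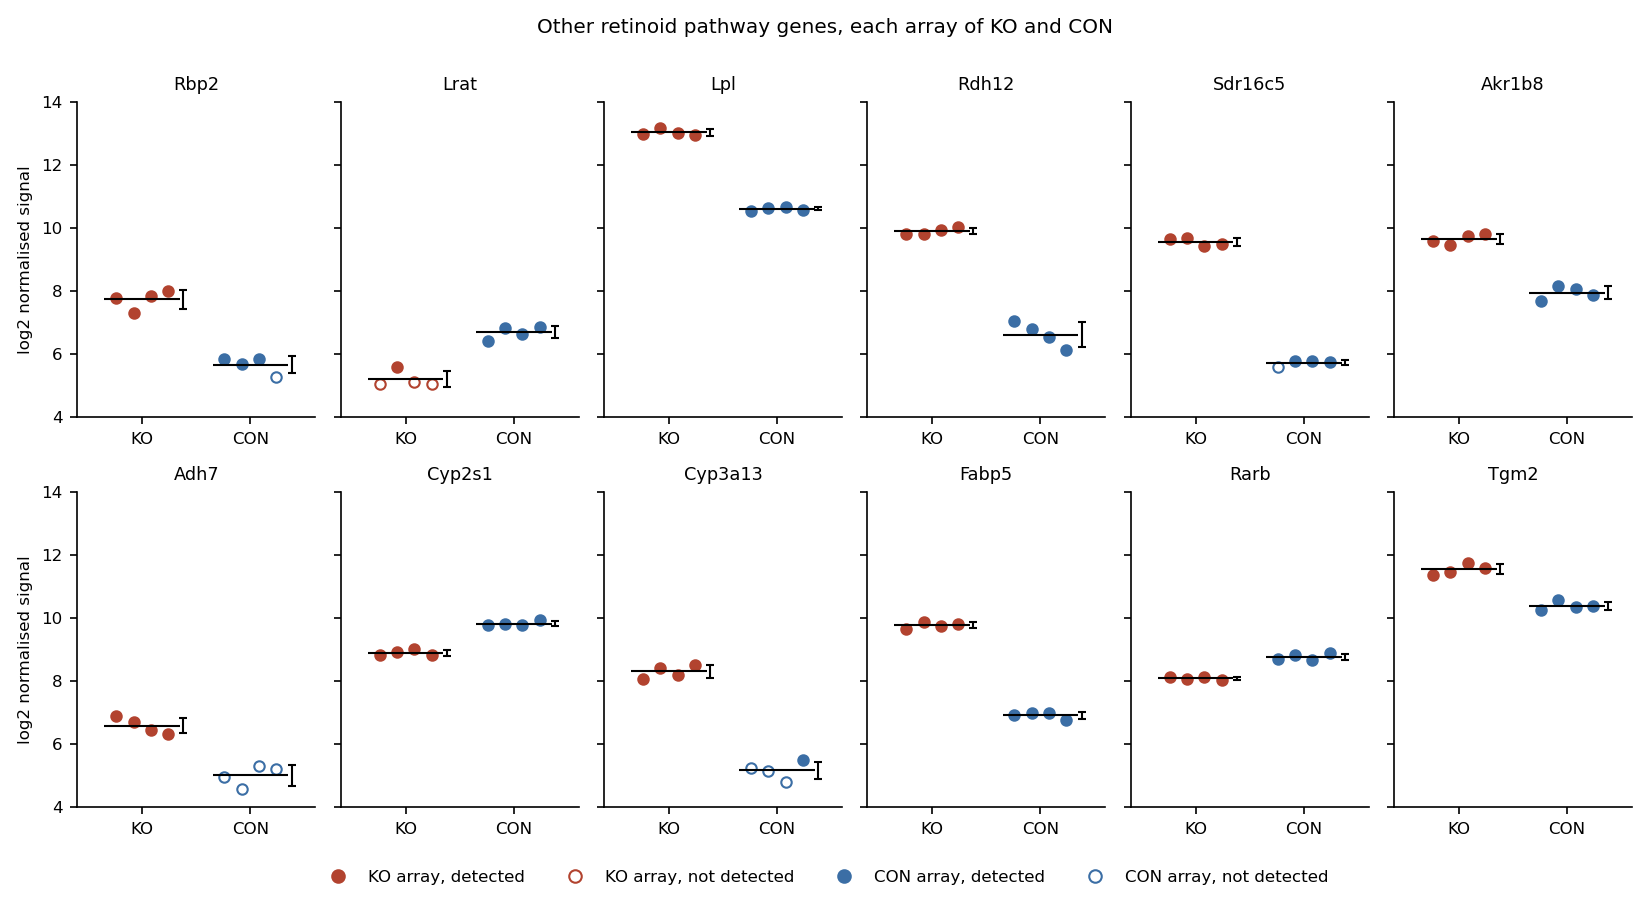
Log2 normalised signal of 12 other retinoid pathway genes on each array, KO left and CON right of each panel. Filled points are detected arrays, open points are not detected, lines are means and bars SD (n = 4 each). KO lies above CON for all but Lrat, Cyp2s1 and Rarb, and all CON points of Adh7 are open. The 12 genes were picked for display from the named genes without a rule and do not show the split of the pathway. Of the 34 tested pathway genes, 13 were higher and 12 lower in KO, against 24.4% higher and 36.5% lower of all tested genes.

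Of the receptors of retinoic acid, Rarb, Rarg, Rxra and Rxrb were tested, and Rara and Rxrg were detected on no array. Rarb had levels of 8.14, 8.09, 8.14 and 8.05 in KO and 8.70, 8.83, 8.68 and 8.89 in CON. The groups did not overlap and Rarb was lower in KO by -0.67 ± 0.07 (limma adjusted p = 3e-05), with -0.45 ± 0.09 at its other tested probe. Rxrb was lower by -0.27 ± 0.07 (limma adjusted p = 0.0075) and by -0.60 ± 0.16 at its other tested probe. The brighter probe was no longer called with cyclic loess (limma adjusted p = 0.072). Rxra had a difference of 0.08 ± 0.15 and Rarg of -0.26 ± 0.11 (limma adjusted p = 0.68 and 0.058), and the other tested Rarg probe had 0.09 ± 0.08. The 95% confidence intervals were -0.26 to 0.42 for Rxra and -0.50 to -0.02 for Rarg.

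Rarb is itself a known target of retinoic acid, and its promoter is shown because the search found a DR5 in it and in that of Cyp26a1. The windows searched were those of the 6 retinoid genes named above and of the tested pathway genes with an entry, which leaves out Dgat1, Lpl, Sdr16c5, Fabp5, Tgm2 and Rarres2, and those of Cyp26a1 and Dhrs3. Each stretch is cut from the RefSeq promoter window of GRCm38.p6, is written 5′ to 3′ along the gene, and has the repeat with its spacer in capitals. The Rarb window is chr14:16575427-16575726 on the minus strand, and the Cyp26a1 window is chr19:37697558-37697857 on the plus strand.
Rarb: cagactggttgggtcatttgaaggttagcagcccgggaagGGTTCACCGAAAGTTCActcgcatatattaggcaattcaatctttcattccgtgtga
Cyp26a1: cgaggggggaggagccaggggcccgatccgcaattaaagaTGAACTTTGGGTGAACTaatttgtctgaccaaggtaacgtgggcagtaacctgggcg
The repeat begins 53 bases before the start site in Rarb and 32 bases before it in Cyp26a1. Rarb was lower in KO by -0.67, and Cyp26a1, the retinoic acid hydroxylase that retinoic acid induces, was not detected on any array.

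Receptors and partners formed a list of which 8 genes were tested, with 5 lower in KO, among them Rarb, Rxrb and Med1, 1 higher and 2 not past the threshold. Over all tested genes, 36.5% were lower and 24.4% higher. Med1 is the gene deleted by design, so its call adds no support to the count of lower genes. Ep300, an acetyltransferase that acts as a coactivator, was lower by -0.41 ± 0.09 (limma adjusted p = 0.0025). Fabp5, which carries fatty acids and can carry retinoic acid and is known from epidermis, was the gene that was higher. Its levels were 9.67, 9.88, 9.77 and 9.84 in KO and 6.92, 6.99, 7.01 and 6.76 in CON. The groups were far apart, with a difference of 2.87 ± 0.08 (limma adjusted p = 2e-09).

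Genes known as targets of retinoic acid did not share a direction. Of 10 tested, 4 were higher, 2 lower and 4 not past the threshold, with a median of 0.22. Over all tested genes, 60.9% were called, 24.4% higher and 36.5% lower. Tgm2, a transglutaminase induced by retinoic acid in many cells, had levels of 11.37, 11.49, 11.75 and 11.61 in KO and 10.27, 10.58, 10.36 and 10.40 in CON, and was higher by 1.16 ± 0.10 (limma adjusted p = 5.4e-06). The homeobox genes Meis1 and Meis2 were higher by 1.17 ± 0.09 and 2.38 ± 0.20, with Meis2 detected on 2 of 4 CON arrays. Tnip1 was higher by 0.62 ± 0.06, and the 2 lower genes were Rarb and the cell cycle inhibitor Cdkn1a, which differed by -0.43.

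**Figure D5:**
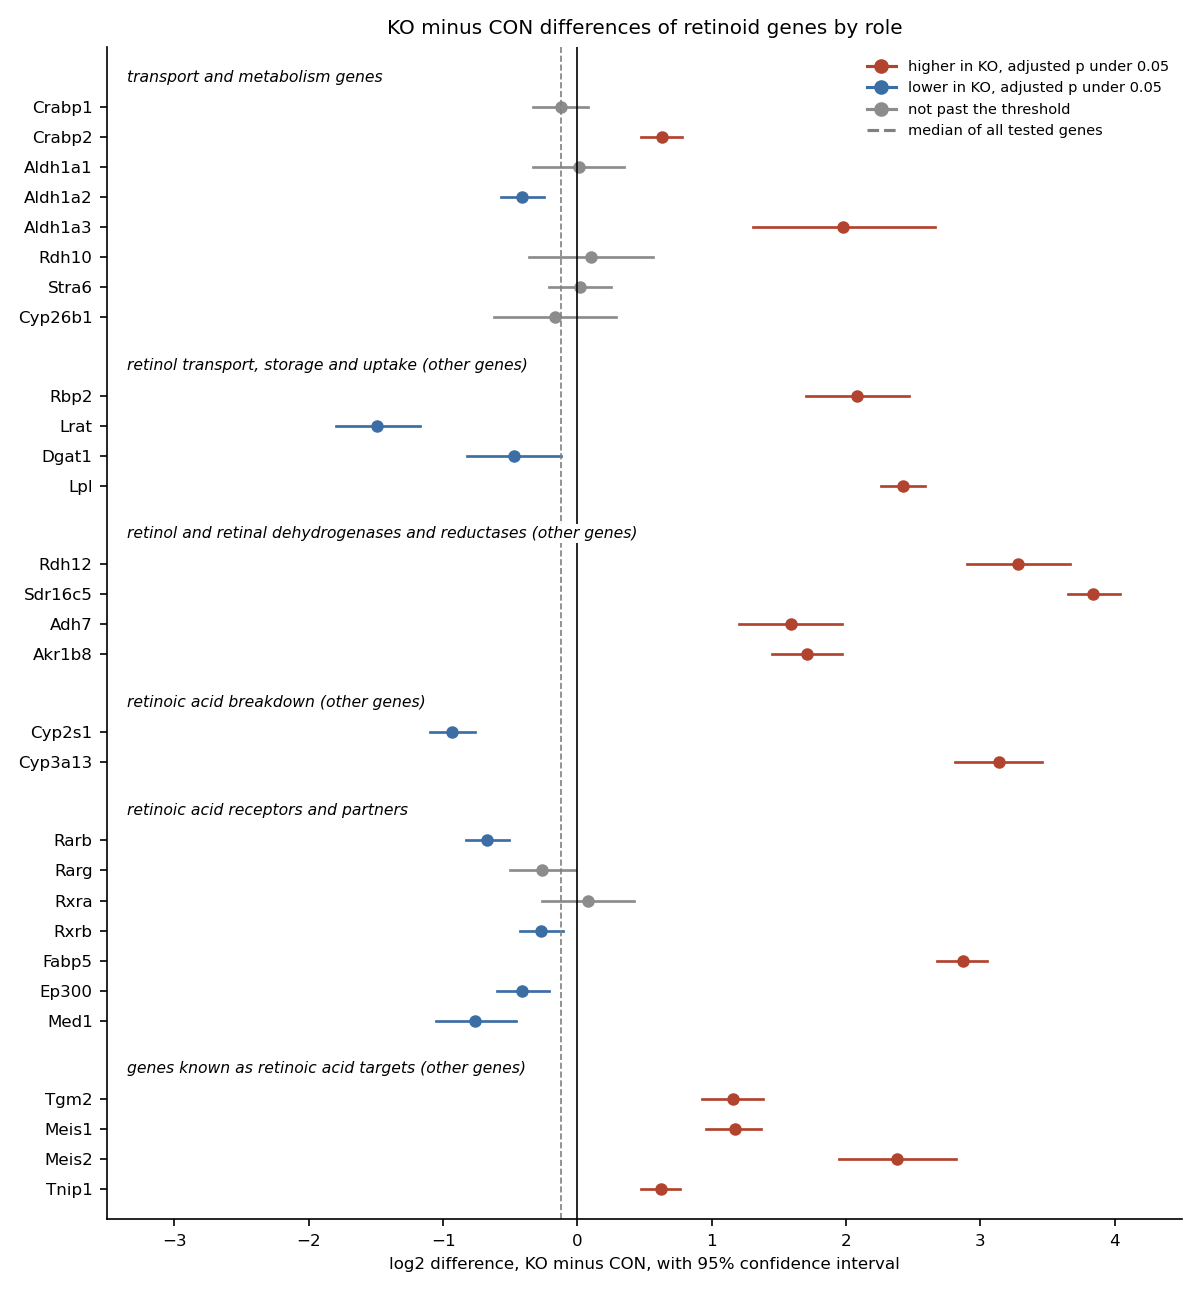
Log2 difference, KO minus CON, with its 95% confidence interval for the tested retinoid genes and the named genes of each pathway list, grouped by role. Red marks genes higher and blue genes lower in KO at an adjusted p under 0.05, grey marks the rest, and the dashed line is the median of all tested genes at -0.12. Differences run from -1.49 for Lrat to 3.84 for Sdr16c5, and Adh7, undetected in CON, is drawn at its fitted value.

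The genes whose profile was most like that of Aldh1a3 over the 8 arrays, by the root mean square difference of log2 levels centred on each gene's mean, were Fbp2 (0.31), Espl1 (0.33) and Lpxn (0.33). No gene came within 0.2 of Aldh1a3. Fbp2 had levels of 7.42, 7.44, 7.51 and 7.80 in KO and 5.64, 4.83, 5.20 and 5.39 in CON, with CON2 the lowest array as for Aldh1a3. For Aldh1a2 the nearest were Tmem64 (0.044), Pcbp3 (0.044) and Mospd3 (0.045), and 3079 genes lay within 0.2 of it. Tmem64 was lower in KO by -0.39 ± 0.07, Pcbp3 by -0.41 ± 0.07 and Mospd3 by -0.38 ± 0.07. All these genes were picked for likeness over the same 8 arrays, so the shared low CON2 and the similar differences follow from the selection.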

How the data were processed

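Total RNA of dissected dental tissue was labelled with biotin and hybridised to Illumina MouseRef-8 v2.0 bead arrays, 4 KO and 4 CON. The deposited table holds the mean bead signal intensity of each probe, not normalised, with a detection p-value against negative control beads, and a further deposited table holds intensities that the authors normalised in GenomeStudio (version not given in the sources used here). Signals were background corrected from the detection p-values, quantile normalised and converted to log2 with an offset of 16 (neqc, limma 3.58.1, R 4.3.3). Probes with detection p under 0.01 on at least 4 arrays were fitted with lmFit and eBayes, two-sided, with Benjamini-Hochberg adjustment over all 12838 probes. Of these, 723 probes are unnamed here. The fit was also run on simulated data in which few probes changed. In these data 59.7% of probes were called, so that run cannot show how the scaling acts here.

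The members and gene lists were chosen with earlier results of these data known. The text names every member, up to 4 genes per pathway list with the largest moderated statistic, every tested retinoic acid receptor, Med1 and the 3 nearest profiles of the members with the largest rise and fall. Further genes, chosen after their values were seen, are Adh5, Rdh14, Rdh5, Dhrs7, Cdkn1a, Ttr, Cyp26a1 and Dhrs3. Arrays of a group are named by the replicate number of their labels. These numbers were not taken to pair KO with CON arrays, and the labels do not tell whether they do. The alternatives were the authors' normalised values with limma and with the methods' t-test, no background correction, an offset of 50, median and cyclic loess scaling, other detection filters, another variance model, the replicate number as a block, each array left out, and averaging the tested probes of a gene. The precision is limited by the number of arrays. No p-value was computed for a list.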

Additional observations from a re-analysis of the deposited data

Results flagged for a closer look

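The levels of the 29 named genes that were tested were examined for arrays far from the other 3 of their group, in 58 groups of 4 arrays, of which chance gives about 1 in 20. There were 4 such arrays. Aldh1a3 had a level of 4.87 in CON2, against 6.16 to 6.35 on the other CON arrays, and without CON2 the difference between KO and CON was 1.64 in place of 1.98. Crabp2 had 9.84 in KO2, against 9.64 to 9.67 on the other KO arrays, and without KO2 its difference was 0.58. Lrat, which esterifies retinol, had 5.60 in KO2, against 5.05 to 5.13 on the other KO arrays, on which it was not detected. Dgat1 had 6.95 in CON4, against 7.60 to 7.64 on the other CON arrays, and without CON4 its difference was -0.63. KO2 was also the array with the highest mean signal, 811.9, and its part in these levels was not tested.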

How the results depend on the processing

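Of 165 values of the 8 tested retinoid genes under the alternatives, 147 kept direction and side of the threshold, as did 409 of 435 values of the other 21 named genes. By the methods' t-test with its p and fold thresholds, 1858 probes, 1 of the 8 retinoid genes and 11 of the 34 pathway genes were called, in place of 7665, 3 and 25, and 7193 probes after Benjamini-Hochberg adjustment alone. Leaving out each array in turn gave 7065 to 7376 probes, 3 retinoid genes each time and 23 to 25 pathway genes. Signs turned for differences near 0 only. Crabp1 turned to 0.11 with cyclic loess, and Aldh1a1 to -0.0028 with the authors' values (by limma and by the t-test), -0.0029 without background correction and -0.00049 with an offset of 50. Leaving out an array moved the difference between -0.12 and 0.10 for Aldh1a1, -0.04 and 0.27 for Rdh10, -0.05 and 0.09 for Stra6, -0.37 and 0.01 for Cyp26b1, and -0.01 and 0.22 for Rxra. Rarg, not called here, was called under 7 of 21 alternatives. With the replicate number as a block, 7390 probes and 24 pathway genes were called, Dgat1 was lost (adjusted p = 0.051) and the same 3 retinoid genes were called. Deviations of same-numbered KO and CON arrays correlated between -0.011 and 0.019, and 0 of 4 KO arrays were best matched by their own number, so the numbers were not taken as pairs. With so few arrays, these values cannot exclude a weak pairing. The cause of these changes was not tested. Rdh10, Cyp26b1 and Aldh1a2 were close to background, and the part of this in their values was not tested.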
